A study of Mus musculus with 9 samples.

Results

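Transcript levels of 10 genes were followed in mouse liver after acetaminophen (APAP) overdose, with and without treatment by adipose-derived mesenchymal stem cells (AMSCs). They were 8 chemokine genes (Cxcl1, Cxcl2, Cxcl12, Cxcl13, Ccl2, Ccl6, Ccl7 and Ccl9) and the genes of both calprotectin subunits (S100a8 and S100a9). Members were chosen by gene symbol, and all 10 were found among the 54532 genes of the deposited table. RNA-seq was performed on 9 livers of C57BL/6 mice, 3 in each of 3 groups. The NC group was labelled as control. The APAP group received 500 mg/kg APAP and the AMSC group received 500 mg/kg APAP together with AMSCs, and both were sampled at 6 h. According to the study's methods the mice were young males fasted overnight before APAP, which was injected intraperitoneally, and the AMSCs were expanded from inguinal fat of mice of the same strain and injected into the tail vein. The study also calls the APAP group its vehicle group. Its methods do not name a sham injection of the NC group or what a vehicle held, so APAP and the injection cannot be told apart in the comparisons with the NC group. They also name no tail vein injection without cells. The cells and their injection therefore cannot be told apart in the comparisons of the AMSC group. The comparisons asked how APAP changed leukocyte-attracting signals in the liver and how these signals stood in AMSC-treated mice.

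Chemokines are small secreted proteins that guide leukocytes through G protein-coupled receptors. CXC chemokines carrying a Glu-Leu-Arg motif, such as Cxcl1 and Cxcl2, attract neutrophils through Cxcr2, whereas CC chemokines act largely on monocytes, macrophages and lymphocytes. S100a8 and S100a9 are calcium-binding proteins that pair as calprotectin, fill the cytosol of neutrophils and are released as danger signals. In the liver, APAP is converted by cytochrome P450 enzymes to a reactive metabolite that kills centrilobular hepatocytes, and dying hepatocytes, Kupffer cells and endothelial cells are known sources of chemokines that recruit neutrophils and monocytes.

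Several members are neighbours in the genome (GRCm38 coordinates as deposited). Cxcl1 (chr5:90891241-90893115) and Cxcl2 (chr5:90903871-90905938) lie on the plus strand, 10755 bases apart with 1 annotated gene between them. Ccl2 and Ccl7 are on the plus strand of chromosome 11, 8258 bases apart. Ccl9 and Ccl6 are on its minus strand, 9245 bases apart. S100a8 and S100a9 lie on opposite strands of chromosome 3, 22596 bases apart, and Cxcl12 is on chromosome 6. Promoter sequence from RefSeq (GRCm38.p6) was matched by symbol for 8 of 10 members (Ccl2 and Ccl7 had no entry). Both strands of the 250 bases before each start site were searched for GGG followed by any 3 bases and then TTCC, a common form of the NF-kB site. The motif was found for Cxcl1, Cxcl2 and Ccl9 (3 of 8 members), against 5.31% of all 27025 symbols and 4.65% of all 32851 promoter entries. The 3 windows that hold it are shown because Cxcl1 and Cxcl2 share a match and differed in AMSC-treated livers, and they end at the base before the annotated gene. Capitals mark the matches, and where matches on both strands overlap the capitals cover both.
Cxcl1 (chr5:90891095-90891240, plus strand): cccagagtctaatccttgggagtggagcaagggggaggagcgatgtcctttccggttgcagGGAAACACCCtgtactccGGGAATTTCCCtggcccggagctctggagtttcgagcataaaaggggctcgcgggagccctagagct
Cxcl2 (chr5:90903749-90903870, plus strand): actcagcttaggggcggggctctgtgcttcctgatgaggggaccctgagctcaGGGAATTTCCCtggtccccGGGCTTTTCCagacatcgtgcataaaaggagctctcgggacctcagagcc
Ccl9 (chr11:83578637-83578786, minus strand): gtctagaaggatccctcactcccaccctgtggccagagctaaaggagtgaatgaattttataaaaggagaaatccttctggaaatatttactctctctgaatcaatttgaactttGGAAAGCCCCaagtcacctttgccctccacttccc
In Cxcl1 and Cxcl2 overlapping matches on both strands formed the same stretch, GGGAATTTCCC, 71 to 61 bases before the RefSeq start of Cxcl1 and 97 to 87 bases before that of Cxcl2. The longest run shared by both windows was GGGAATTTCCCTGG, 14 bases long. A match describes letters in a window and does not show binding.

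Libraries held 13418921 to 16210930 reads on genes, and 1 read on a transcript of 1 kilobase was worth 0.0578 to 0.0807 FPKM (a read count corrected for transcript length and depth), so members under about 1 FPKM rest on few reads. The title of NC replicate 3 carried an earlier date than the other 8 titles, so the fits were repeated without it. That title also carried the number 1, and the replicate number used here was taken from the description. The AMSC libraries bore the replicate numbers 2, 3 and 4. Hepatocyte markers dominated every library, as the label liver implies, and the groups were apart in the summed level of 9 genes, with 41900 to 44920 FPKM in NC, 56930 to 64970 FPKM in APAP and 53130 to 55510 FPKM in AMSC libraries. Alb made up most of this sum, with means of 28741, 44835 and 33180 FPKM, so the sum mainly describes that gene. In APAP against NC 7 of the 9 were higher, 4 of them at an unadjusted p under 0.05, though none as a DEG. Of the other 2, Cyp2e1, which activates APAP, fell by 2.31 on the log2 scale in the APAP group (adjusted p = 0.0147) and was higher in AMSC than in APAP livers by 2.40 (adjusted p = 0.0474, a call lost in 8 of 16 alternatives). In AMSC against NC, Tat (1.56, adjusted p = 0.00352) and Hnf4a (1.06, adjusted p = 0.00745, lost in 5 of 16 alternatives) were higher. Markers of leukocytes, platelets and red cells moved with the groups and are given beside the calprotectin results. Counts at an unadjusted p, here and below, have no share over all genes beside them and are descriptions only.

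At baseline the member transcripts were unequal (all levels are FPKM, which corrects for transcript length). In the NC group Cxcl12 led with 43.3 ± 4.55 (SD, n = 3), followed by Ccl9 with 18.7 ± 1.13 and Ccl6 with 3.24 ± 1.23, and the ranges of Cxcl12 and Ccl9 did not overlap each other or that of Ccl6. Cxcl13, Cxcl1, S100a8, Ccl2, S100a9, Ccl7 and Cxcl2 followed in that order, and of these neighbours only Cxcl1 and S100a8 had ranges that were apart. In the APAP group Cxcl1 (29.6 ± 20.5), Ccl9 (24.1 ± 1.24) and Cxcl12 (23.2 ± 3.85) overlapped at the top. In the AMSC group Cxcl1 stood alone with 34.7 ± 5.93, above Cxcl12 (18.6 ± 2.17) and Ccl9 (18.4 ± 2.96), whose ranges overlapped. Cxcl12 made up 56.2% to 67.5% of the summed member level in NC livers, 17.9% to 26.8% in APAP livers and 21.1% to 23.3% in AMSC livers. Cxcl1 made up 1.2% to 1.87%, 5.88% to 40.4% and 40.5% to 42.3% of it, respectively.

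**Figure D1:**
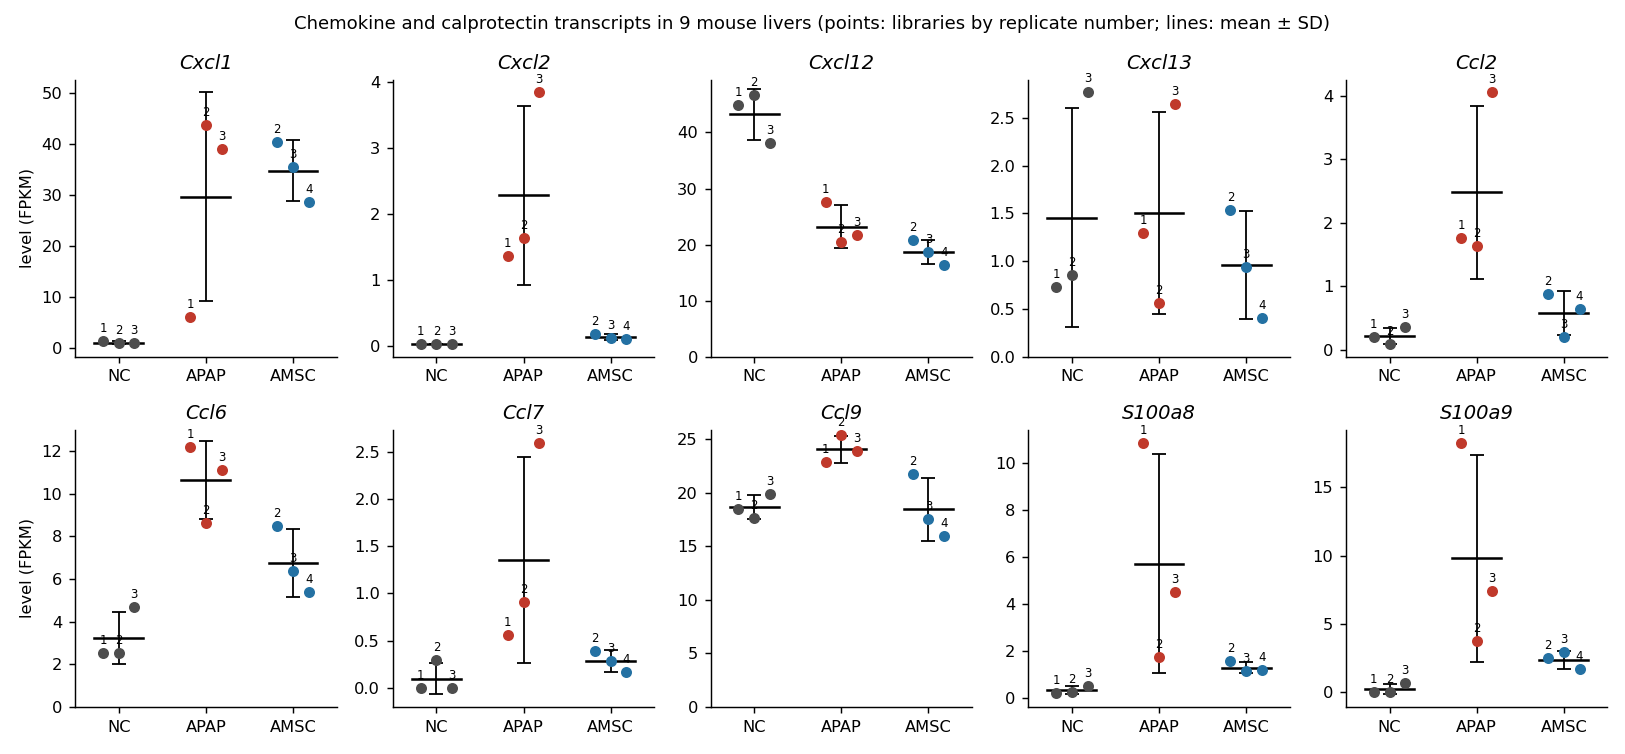
Level in FPKM (y axis, a scale of its own for each gene) of the 10 genes in each library of the NC, APAP and AMSC groups (x axis), with numbers for replicates and lines for the mean ± SD of 3 libraries. Cxcl2, Ccl2, Ccl7, S100a8 and S100a9 were high in the APAP libraries and lower in the AMSC libraries, while Cxcl1 in the AMSC libraries (28.5 to 40.3) lay near APAP replicates 2 and 3 and far above APAP replicate 1.

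Compared with the NC group, APAP livers had more RNA for neutrophil and monocyte attractants and for calprotectin. Cxcl1, Ccl2, Ccl6, S100a8 and S100a9 rose, which is 5 of the 8 members that passed a mean of 1 FPKM. No member fell by the same thresholds, although Cxcl12 was lower. Genes were called differentially expressed (DEGs) if the Benjamini-Hochberg adjusted p did not exceed 0.05 and FPKM + 1 changed by a log2 value of 1 or more in either direction, in limma fits of 9699 genes. By this rule 5.09% of all genes tested were higher and 2.8% were lower in the APAP group. The median log2 fold change was 1.47 over the 8 members and -0.0043 over all genes tested. Ccl2 and S100a8 averaged under 1 FPKM outside the APAP group and passed the filter only through it, so they had to differ. The count of 5 and the median are therefore partly set by the filter and describe these 8 genes only. Of the 8 members tested, 6 had all APAP livers above all NC livers and 1 had them below, as had 20.9% and 22.3% of the genes tested. Cxcl2 and Ccl7, under the filter, also had all APAP livers above. With 3 livers against 3, an exact permutation test cannot give a two-sided p below 0.1, and 9 of the 10 members were at that value. In whole liver, more cells of a type and more RNA per cell cannot be told apart. Leaving out any 1 library kept all 5 calls, including NC replicate 3 with its other date.

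AMSC-treated livers had lower levels than APAP livers for most members, but not for Cxcl1, and 0 of 8 members were DEGs by limma with 3 libraries a group. The unadjusted p was under 0.05 for 5 members, each lower in the AMSC group (Ccl2, Ccl6, Ccl9, S100a8 and S100a9). The share of all genes tested at that p was not counted, so these 5 cannot be set against the shares of DEGs. Of all genes tested, 1.22% were lower and 0.742% were higher in the AMSC group as DEGs. The median log2 fold change of the 8 members was -0.48, against 0.013 over all genes tested. Since Ccl2 and S100a8 passed the filter only through their APAP libraries, this median and the count of livers that did not overlap are partly set by it too. Of the 8 members tested, 5 had all AMSC livers below all APAP livers and 0 had them above, as had 12.4% and 14.6% of the genes tested. Cxcl2 and Ccl7 had them below too. Without APAP replicate 2, S100a8 (-1.84, adjusted p = 0.0292) and S100a9 (-1.93, adjusted p = 0.0370) were DEGs. In a voom fit of the reads of 17462 genes, added after the data were seen, Cxcl2 alone was a DEG among all 10 members, where 1.7% of genes were lower. This comparison uses the same APAP libraries as the one before, so a high APAP library raises one difference and deepens the other.

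Against the NC group, AMSC-treated livers had higher Cxcl1 and S100a9 and lower Cxcl12 as DEGs, 3 of 8 members. Of all genes tested, 3.92% were higher and 2.09% were lower by this rule. Of the 8 members tested, 4 had all AMSC livers above all NC livers and 1 had them below, as had 23.2% and 20.3% of the genes tested, and Cxcl2 had them above. The median log2 fold change was 0.57 over the 8 members and 0.016 over all genes tested. In the voom fit of reads there were 5 DEGs, since Ccl6 and S100a8 also passed, which made 4 higher members of 10 where 4.63% of genes were higher. Without NC replicate 3 there were 4 DEGs among the 8 members, with Ccl6 added.

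**Figure D2:**
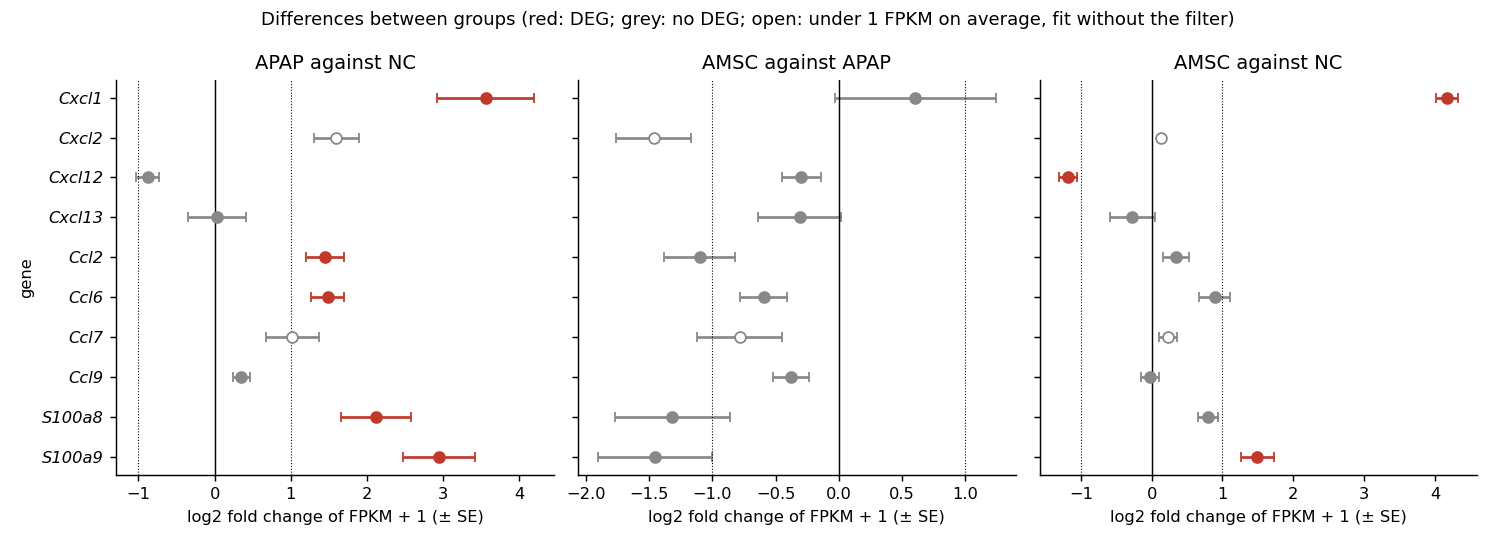
Log2 fold change of FPKM + 1 with its SE (x axis, a scale of its own in each panel) for the 10 genes (y axis) in the 3 comparisons. Red points are DEGs, grey points are not, and open points are Cxcl2 and Ccl7, whose mean was under 1 FPKM and whose values come from a fit without that filter. 5 genes are red in APAP against NC, none in AMSC against APAP, and Cxcl1, Cxcl12 and S100a9 in AMSC against NC.

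Cxcl1 encodes a ligand of Cxcr2 that draws neutrophils from the blood. Its level was 1.28, 0.833 and 0.837 FPKM in NC replicates 1 to 3. It was 6.04, 43.7 and 38.9 FPKM in APAP replicates 1 to 3 and 40.3, 35.4 and 28.5 FPKM in AMSC replicates 2 to 4. All 6 treated livers lay above all NC livers, and APAP replicate 1 lay far below the other treated livers. Cxcl1 rose in the APAP group by 3.56 on the log2 scale (SE 0.63, adjusted p = 0.00663), and AMSC livers exceeded NC livers by 4.17 (SE 0.15, adjusted p = 2.29e-06). Between the AMSC and APAP groups the difference was 0.61 (SE 0.64, adjusted p = 0.655), so it was smaller than its error, and it turned to -0.26 without APAP replicate 1. In a fit with all 24849 genes above 0 in any library, the adjusted p of the rise with APAP was 0.0646.

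Cxcl2 encodes a second Cxcr2 ligand with the same main role. It was at 0.0290, 0.0280 and 0.0281 FPKM in the NC libraries, which is 1 read in each. The APAP libraries had 1.37, 1.64 and 3.85 FPKM (38, 42 and 107 reads) and the AMSC libraries 0.183, 0.112 and 0.0965 FPKM (6, 3 and 3 reads). No groups overlapped, and the AMSC libraries lay closer to the NC libraries than to the APAP libraries. The ratio of reads for a given depth was 81.3 in APAP against NC (95% exact binomial interval 27.4 to 397.8) and 0.0574 in AMSC against APAP (0.0291 to 0.103). These intervals cover counting error only, since reads from PCR without molecular identifiers are not independent molecules. Cxcl2 averaged 0.815 FPKM over the 9 libraries and so was not among the 9699 genes tested. Without that filter its log2 fold change on FPKM + 1 was 1.60 in APAP against NC (SE 0.30, adjusted p = 0.0441), where 1.53% of genes were higher as DEGs, and -1.47 in AMSC against APAP (SE 0.30, adjusted p = 0.159). The first of these calls was lost without any 1 of NC replicates 1, 2 and 3 or APAP replicates 1 and 2 (adjusted p = 0.150, 0.150, 0.115, 0.0540 and 0.101), and with the replicate number as a block (adjusted p = 0.106). With voom on reads, where 7.1% of genes were higher in APAP against NC, the changes were 5.61 (adjusted p = 0.00251) and -3.86 (SE 0.70, adjusted p = 0.0144). Of 2159 stretches of 50 bases in Cxcl2 transcripts, 126 (5.84%) also occur in Cxcl3, so part of its reads could be divided between them.

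These neighbouring genes thus stood apart in the AMSC group. Cxcl1 exceeded Cxcl2 by a factor of 44.1, 29.8 and 29.8 in the NC libraries. The factor was 4.41, 26.7 and 10.1 in the APAP libraries, and 220.6, 316.9 and 295.2 in the AMSC libraries. All AMSC libraries lay above all others, and all APAP libraries lay below the NC libraries. Each ratio in the NC and AMSC groups rests on 1 to 6 Cxcl2 reads.

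**Figure D3:**
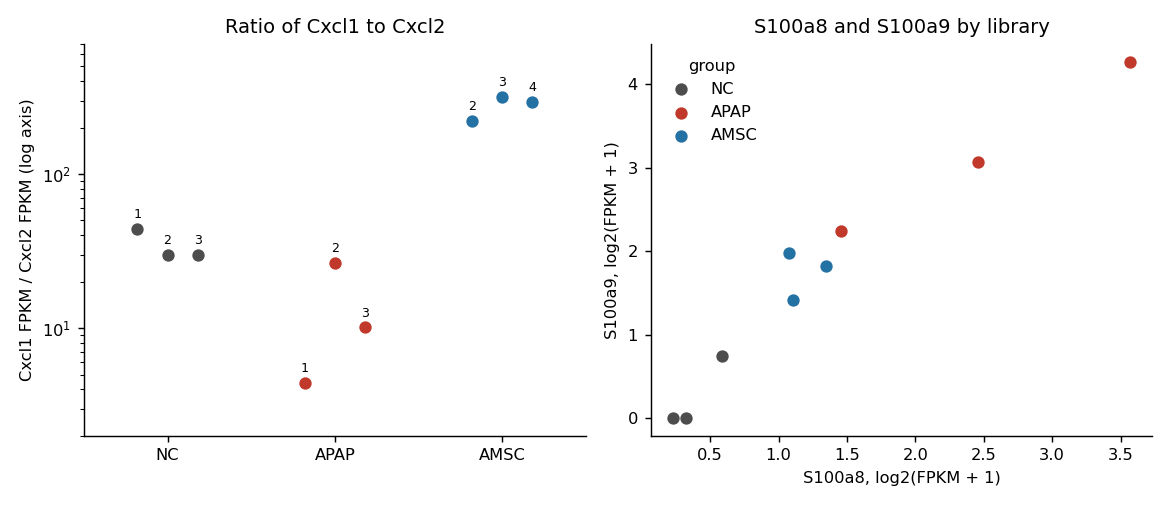
Left, ratio of Cxcl1 to Cxcl2 FPKM (y axis, log scale) in each library of the 3 groups (x axis), with replicate numbers. Right, S100a9 against S100a8 as log2(FPKM + 1), 1 point per library. AMSC libraries have ratios of 220.6 to 316.9, above the 4.41 to 44.1 of the other libraries, and S100a8 and S100a9 are both highest in the APAP libraries.

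Cxcl12, the ligand of Cxcr4, is made by stromal and endothelial cells and retains leukocytes and progenitor cells in tissues. NC libraries had 45.0, 46.8 and 38.1 FPKM. APAP libraries had 27.6, 20.4 and 21.6 FPKM and AMSC libraries 20.7, 18.7 and 16.4 FPKM. All NC livers lay above all treated livers, and the APAP and AMSC groups overlapped slightly. The log2 fold change was -0.88 in APAP against NC (SE 0.15, adjusted p = 0.00608), short of the fold threshold, and -1.18 in AMSC against NC (SE 0.13, adjusted p = 0.000533), where Cxcl12 fell as a DEG. Between AMSC and APAP it was -0.30 (SE 0.16, adjusted p = 0.329). Scaled to total reads on genes, or without APAP replicate 1, Cxcl12 was also a DEG in APAP against NC (-1.13 and -1.005). The 10 endothelial and 10 stellate cell markers, all above 1 FPKM, held no DEG in any comparison, with 3 and 4 higher and 0 and 1 lower in the APAP than in the NC group at an unadjusted p under 0.05. In AMSC against APAP, 0 and 1 were higher and 6 and 1 were lower by that measure. In AMSC against NC, 0 and 1 were higher and 3 and 1 were lower. The part of these cells in the Cxcl12 differences was not tested.

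Cxcl13, which guides B cells into follicles through Cxcr5, showed no difference by group. It had 0.730, 0.855 and 2.78 FPKM in NC libraries, 1.30, 0.561 and 2.65 FPKM in APAP libraries and 1.53, 0.937 and 0.405 FPKM in AMSC libraries. The groups overlapped fully, and the largest values came from NC replicate 3 and APAP replicate 3. The log2 fold changes were 0.04 (SE 0.38, adjusted p = 0.951) in APAP against NC, -0.31 (SE 0.33, adjusted p = 0.660) in AMSC against APAP and -0.27 (SE 0.32, adjusted p = 0.578) in AMSC against NC. At 7 to 55 reads per library, a difference of the size of these errors was not detectable.

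Ccl2, the main ligand of Ccr2 that calls monocytes out of bone marrow, rose in the APAP group. NC libraries had 0.211, 0.102 and 0.357 FPKM (4, 2 and 7 reads). APAP libraries had 1.77, 1.63 and 4.05 FPKM (27, 23 and 62 reads), and AMSC libraries 0.885, 0.203 and 0.643 FPKM (16, 3 and 11 reads). The APAP group lay above both others, and the AMSC and NC groups overlapped. The log2 fold change was 1.45 in APAP against NC (SE 0.25, adjusted p = 0.00621) and -1.10 in AMSC against APAP (SE 0.28, adjusted p = 0.0775). The latter was a DEG when all 9 libraries shared one estimate of spread (adjusted p = 0.0338). Against NC the AMSC group differed by 0.35 (SE 0.18, adjusted p = 0.199). Without the filter on low levels, the adjusted p of the rise with APAP was 0.0524.

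Ccl7, a further Ccr2 ligand beside Ccl2 on chromosome 11, had the fewest reads. NC libraries held 0, 4 and 0 reads (0, 0.289 and 0 FPKM). APAP libraries held 6, 9 and 28 reads (0.558, 0.907 and 2.60 FPKM) and AMSC libraries 5, 3 and 2 reads (0.393, 0.288 and 0.166 FPKM). The APAP group lay above both others, while the AMSC and NC groups overlapped. The read ratio was 14.02 in APAP against NC (95% interval 5.10 to 53.8) and 0.208 in AMSC against APAP (0.0931 to 0.420). Ccl7 averaged 0.578 FPKM and was not tested with the 9699 genes. Without the filter its log2 fold changes were 1.02 (SE 0.35, adjusted p = 0.168) and -0.78 (SE 0.34, adjusted p = 0.430), and with voom 3.92 (adjusted p = 0.0274, a DEG) and -1.89 (adjusted p = 0.196).

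Ccl6 and Ccl9 are rodent CC chemokines that act through Ccr1 and are made by macrophages and other myeloid cells. Ccl6 had 2.54, 2.51 and 4.66 FPKM in NC libraries, 12.2, 8.63 and 11.1 FPKM in APAP libraries and 8.49, 6.39 and 5.37 FPKM in AMSC libraries. All 3 groups were apart, with the AMSC group between the others. Ccl6 rose in the APAP group by 1.48 on the log2 scale (SE 0.22, adjusted p = 0.00303). In AMSC against APAP the log2 fold change was -0.59 (SE 0.19, adjusted p = 0.129) and in AMSC against NC 0.89 (SE 0.22, adjusted p = 0.0205), under the fold threshold but a DEG without NC replicate 3 (1.12) or without AMSC replicate 4 (1.02). Reads of Ccl6 could include those of E230016K23Rik, which overlaps it on the other strand, as Gm17268 overlaps Ccl2, because the strand setting of the counting is not given in the sources used here.

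Ccl9 was far more abundant at baseline and moved less. It had 18.5, 17.7 and 19.9 FPKM in NC libraries, 22.9, 25.4 and 23.9 FPKM in APAP libraries and 21.7, 17.6 and 15.99 FPKM in AMSC libraries. In FPKM the APAP group lay above both others, which overlapped. The log2 fold change was 0.35 in APAP against NC (SE 0.11, adjusted p = 0.0558), -0.38 in AMSC against APAP (SE 0.14, adjusted p = 0.187) and -0.03 in AMSC against NC (SE 0.13, adjusted p = 0.899). The first of these ranged from 0.10 to 0.39 over 16 alternative limma fits, with adjusted p from 0.0427 to 0.513. Relative to reads on genes, the authors' FPKM denominators were highest in the NC group, which lowers NC levels. Reads of Ccl9 overlapped, with 938, 930 and 1042 in NC libraries and 935, 957 and 979 in APAP libraries. Ccl9 exceeded its neighbour Ccl6 by a factor of 4.27 to 7.28 in NC livers, 1.88 to 2.94 in APAP livers and 2.56 to 2.98 in AMSC livers. The NC livers lay apart from all treated livers in this ratio.

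S100a8 and S100a9 both rose in the APAP group. S100a8 had 0.173, 0.24996 and 0.502 FPKM in NC libraries, 10.8, 1.74 and 4.50 FPKM in APAP libraries and 1.54, 1.11 and 1.15 FPKM in AMSC libraries. The 3 groups were apart, with APAP replicate 1 highest and APAP replicate 2 just above the AMSC libraries. The log2 fold change was 2.11 in APAP against NC (SE 0.46, adjusted p = 0.0139), -1.32 in AMSC against APAP (SE 0.45, adjusted p = 0.155) and 0.80 in AMSC against NC (SE 0.14, adjusted p = 0.00510), the last under the fold threshold. Without the filter on low levels the adjusted p of the rise with APAP was 0.0976.

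S100a9 had 0, 0 and 0.668 FPKM in NC libraries (0, 0 and 6 reads). APAP libraries had 18.3, 3.71 and 7.41 FPKM (128, 24 and 52 reads) and AMSC libraries 2.53, 2.95 and 1.66 FPKM (21, 20 and 13 reads). The 3 groups were again apart and in the same order, and the APAP libraries held the same ranks as for S100a8. S100a9 rose in the APAP group by 2.95 on the log2 scale (SE 0.47, adjusted p = 0.00435), and AMSC livers exceeded NC livers by 1.49 (SE 0.23, adjusted p = 0.00296). In AMSC against APAP it differed by -1.46 (SE 0.45, adjusted p = 0.127). S100a9 exceeded S100a8 by a factor of 1.65 to 2.13 in the APAP libraries and 1.44 to 2.66 in the AMSC libraries, ranges that overlapped.

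Calprotectin RNA is abundant in neutrophils, and other neutrophil genes were measured beside it. The summed level of 16 other neutrophil markers was 1.78 to 4.001 FPKM in NC libraries, 5.21 to 11.4 FPKM in APAP libraries and 2.79 to 3.62 FPKM in AMSC libraries, so the APAP group lay above both others. Only 2 of the 16 passed the filter, and 1 of these, Retnlg, a resistin-like gene of mouse granulocytes, rose in the APAP group by 1.74 (SE 0.27, adjusted p = 0.00377). Retnlg was also higher in the AMSC than in the NC group, by 1.09 (SE 0.16, adjusted p = 0.00249). It passed the filter only through its APAP libraries, so its rise with APAP is partly set by the filter. The other, Fpr1, a receptor for formyl peptides, differed by -0.16 in APAP against NC (adjusted p = 0.735) and by -0.66 in AMSC against NC (adjusted p = 0.0863). Of those under the filter, Camp was at 0 in all libraries, and Ly6g, Mpo, Elane, Ngp and Ltf were between 0 and 0.272 FPKM. For these, and for Mmp9, Cxcr1 and Fpr2, APAP and NC libraries overlapped. Il1r2 had 0 FPKM in NC, 0.888 to 1.36 in APAP and 0.132 to 0.174 in AMSC libraries. Trem1 had 0, 0.727 to 1.27 and 0.042 to 0.111, and Csf3r 0.080 to 0.258, 0.380 to 1.34 and 0.227 to 0.341, respectively. Cxcr2 and Mmp8 had all APAP above all NC libraries but overlapped with AMSC libraries. All these levels rest on few reads. The part of neutrophil number in the S100a8 and S100a9 differences was not tested.

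Other marker lists moved with the groups too. Of all genes tested, 5.09% were higher in APAP than in NC as DEGs, and 1.22% were lower in AMSC than in APAP. The 11 Kupffer cell and macrophage markers summed to 110.9 to 209.5 FPKM in NC, 165.7 to 412.9 FPKM in APAP and 99.0 to 162.1 FPKM in AMSC libraries. Of these, Cd68, a lysosomal protein of macrophages, rose with APAP (1.38, adjusted p = 0.00337) and was lower in the AMSC than in the APAP group (-1.24, adjusted p = 0.0267), the latter call being lost in 4 of 16 alternatives. Timd4, a receptor for dying cells, rose with APAP as well (1.02, adjusted p = 0.0497), a call lost in 8 of 15 alternatives. Of 9 monocyte markers 3 passed the filter and 1, Plac8, rose (1.32, adjusted p = 0.0101). The 5 erythrocyte markers summed to 134.5 to 254.0 FPKM in NC, 305.9 to 1406 FPKM in APAP and 183.2 to 311.9 FPKM in AMSC libraries, with all 4 globin genes higher in APAP than in NC as DEGs, calls lost in 3 to 5 of 16 alternatives. The 5 platelet markers summed to 0.627 to 0.765 FPKM in NC, 4.39 to 7.99 FPKM in APAP and 0.719 to 1.27 FPKM in AMSC libraries. Gp9 (1.84, adjusted p = 0.00177) and Itga2b (1.21, adjusted p = 0.00192), subunits of platelet receptors, rose with APAP, and Gp9 was lower in AMSC than in APAP (-1.83, adjusted p = 0.00812). Both genes passed the filter only through the APAP libraries, so these calls are partly set by it. No lymphocyte marker of 12 passed the filter. Of 7 markers of mesenchymal stem cells 3 passed, with Vcam1 and Ly6a (1.00192, lost in 6 of 15 alternatives) higher in APAP than in NC. In AMSC against APAP, 0 of these 3 were higher and 3 were lower at an unadjusted p under 0.05, and 0 were DEGs. The part of these cell types in the chemokine differences was not tested.

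**Figure D4:**
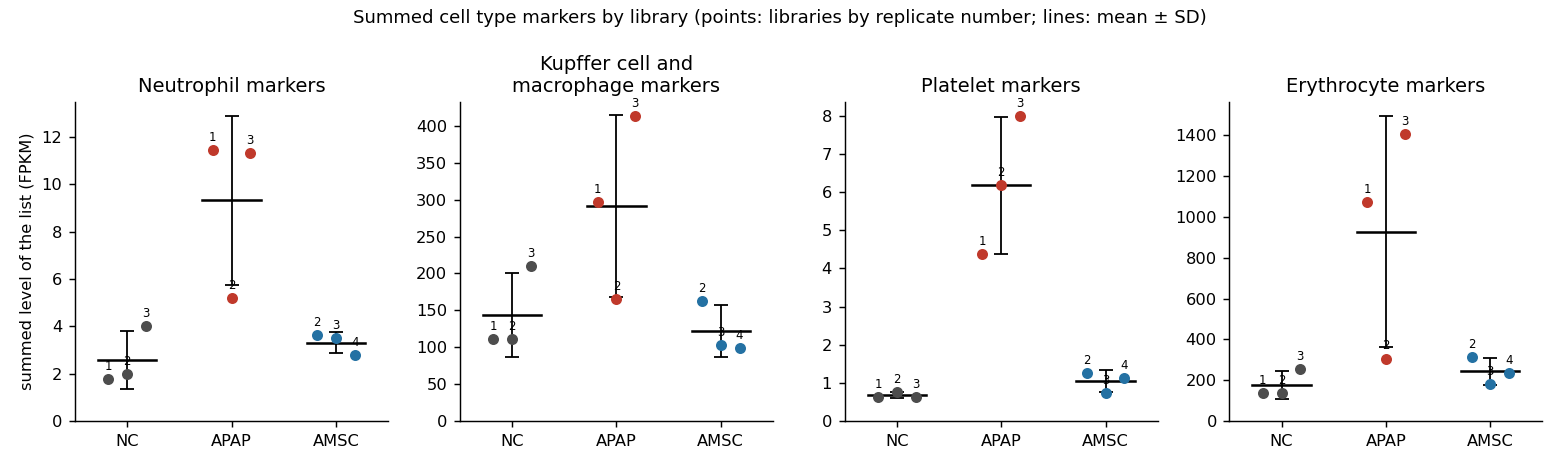
Summed level in FPKM (y axis, a scale of its own per panel) of 16 neutrophil, 11 Kupffer cell and macrophage, 5 platelet and 5 erythrocyte markers in each library of the 3 groups (x axis), with lines for the mean ± SD of 3 libraries. The platelet sum is 4.39 to 7.99 in APAP libraries and at most 1.27 elsewhere, and the neutrophil sum is 5.21 to 11.4 in APAP libraries and at most 4.001 elsewhere.

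The other ligands of the family were listed with earlier results known. Of 13 further CXC, XC and CX3C ligands 6 passed the filter, and 4 of these rose with APAP and 0 fell, with a median log2 fold change of 1.84 (-0.0043 over all genes tested, of which 5.09% rose). Pf4, Ppbp and Cxcl14 passed the filter only through the APAP libraries, so these counts and medians are partly set by it. Cxcl10, an attractant of activated T cells through Cxcr3, rose by 2.93 (SE 0.32, adjusted p = 0.000988), and Cxcl9, which binds the same receptor, by 1.07 (SE 0.20, adjusted p = 0.00823, a call lost in 4 of 15 alternatives). Pf4 and Ppbp, both stored in platelet granules, rose by 2.65 (SE 0.19, adjusted p = 0.000139) and 2.61 (SE 0.12, adjusted p = 2.81e-05). In AMSC against APAP, 3 of the 6 fell, with a median of -1.71 (0.013 over all genes tested, of which 1.22% fell). Ppbp fell by 2.27 (adjusted p = 0.000643), Pf4 by 2.09 (adjusted p = 0.00101) and Cxcl9 by 1.88 (adjusted p = 0.00643) on the log2 scale, and Cxcl10 stood higher in AMSC than in NC by 1.39 (adjusted p = 0.00516). Of 17 further CC ligands, 2 passed the filter (Ccl24 and Ccl27a) and neither was a DEG in any comparison, nor had either an unadjusted p under 0.05. The other 15 CC ligands were too low to be tested, so the classes were not compared.

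**Figure D5:**
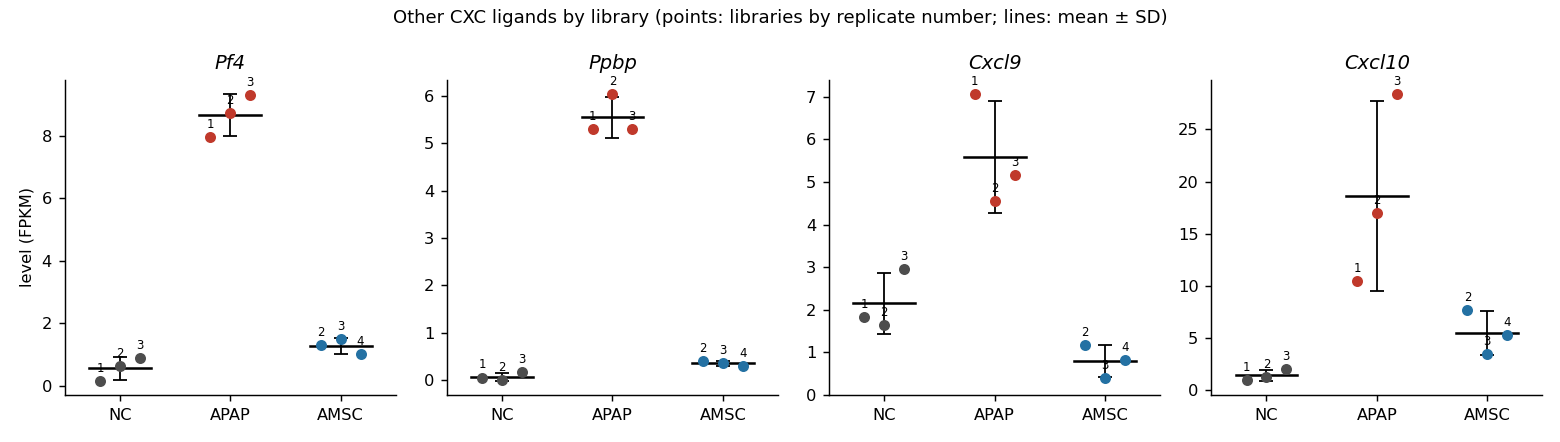
Level in FPKM (y axis, a scale of its own per gene) of Pf4, Ppbp, Cxcl9 and Cxcl10 in each library of the 3 groups (x axis), with replicate numbers and lines for the mean ± SD of 3 libraries. All APAP libraries lie above all NC and AMSC libraries for each of these ligands, and Cxcl9 is lower in the AMSC libraries (0.408 to 1.17) than in the NC libraries (1.65 to 2.97).

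None of 23 chemokine receptors passed the filter. Those named above as receptors of members are given, and they were picked after their values were seen. Cxcr4 had 0.032 to 0.192 FPKM in NC, 0.446 to 1.15 FPKM in APAP and 0.221 to 0.426 FPKM in AMSC libraries, with the 3 groups apart. Cxcr2 had 0 to 0.095, 0.106 to 0.561 and 0 to 0.151 FPKM, and its APAP and AMSC libraries overlapped. Ccr1 had 0 to 0.122, 0.142 to 0.711 and 0 to 0.117 FPKM, with the APAP group above both others. Ccr2 went the other way, with 0.053 to 0.129, 0.048 to 0.066 and 0.068 to 0.112 FPKM, and all AMSC libraries lay above all APAP libraries. Cxcr5 was at most 0.089 FPKM, and its groups overlapped. Of 19 other S100 genes and calprotectin receptors 8 passed and 0 were DEGs in any comparison by limma, with 1 at an unadjusted p under 0.05 in each, higher in APAP than in NC and lower in the AMSC group.

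Of 18 adhesion genes that let leukocytes leave the blood, 8 passed, and 1, Vcam1, rose with APAP (1.59, SE 0.19, adjusted p = 0.00134) and stood higher in AMSC than in NC (1.03, adjusted p = 0.00450, lost in 5 of 15 alternatives). As DEGs, 5.09% of all genes tested rose with APAP and 3.92% were higher in AMSC than in NC. In AMSC against APAP, 1.22% fell. Of 16 cytokines that act upstream of chemokines, 5 passed. Il1b, which drives chemokine transcription through the IL-1 receptor, rose with APAP by 1.81 (adjusted p = 0.0236) and fell in AMSC against APAP by 2.19 (adjusted p = 0.0367), calls lost in 5 and 7 of 15 alternatives, and Il1bos overlaps it on the other strand. Il1a, a ligand of the same receptor, fell in AMSC against APAP by 1.01 (adjusted p = 0.0421), a call lost in 9 of 15. Il1b and Il1a passed the filter only through the APAP libraries, so these calls are partly set by it.

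Genes of the NF-kB feedback circuit, which NF-kB itself induces, were compared because the factor is a known activator of chemokine promoters. Of 16 listed, 12 passed, and 3 rose with APAP, where 5.09% of all genes tested rose. The 3 were Ier3 (2.75, SE 0.26, adjusted p = 0.000502), Nfkbiz (2.25, SE 0.22, adjusted p = 0.000593) and Nfkbia (1.11, SE 0.13, adjusted p = 0.00142), the last of which encodes the inhibitor IkBa and lost its call in 2 of 16 alternatives. In AMSC against APAP, Ier3 fell by 1.496 (adjusted p = 0.0259), a call lost in 4 of 15 alternatives, while Bcl3 rose by 1.73 (SE 0.17, adjusted p = 0.00429). Of all genes tested, 1.22% fell and 0.742% rose in that comparison. In AMSC against NC, 4 rose and 0 fell, with a median of 0.72 (0.016 over all genes tested, of which 3.92% rose and 2.09% fell). Nfkbiz, a nuclear partner of NF-kB, had 5.69, 11.9 and 8.41 FPKM in APAP libraries and 11.8, 10.2 and 11.1 FPKM in AMSC libraries, against 0.955 to 0.968 FPKM in NC libraries. Like Cxcl1, it was therefore higher in all treated livers, with overlap between the APAP and AMSC groups.

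Genes whose pattern over the 9 libraries was most like that of each tested member were ranked by Pearson's r of log2(FPKM + 1), as a description. The points share groups, so r here reflects group differences as well as spread within groups. Cxcl1 was closest to Sdc4 (r = 0.990) and Ip6k2 (r = 0.989), Cxcl12 to Magt1 (r = 0.988) and Akr1c14 (r = 0.981), and Cxcl13 to Ndufv2 (r = 0.957) and Mettl23 (r = 0.931). Ccl2 was closest to H2-K1 (r = 0.969) and Pld3 (r = 0.968), Ccl6 to Vcam1 (r = 0.986) and Rap1b (r = 0.982), and Ccl9 to Fcgr3 (r = 0.973) and Hist1h2bc (r = 0.949). S100a8 was closest to Klf4 (r = 0.982) and Ucp2 (r = 0.972), and S100a9 to Retnlg (r = 0.982) and Ripk1 (r = 0.977).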

How the data were processed

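Total RNA of 9 mouse livers was extracted with an RNeasy kit and sequenced from SMARTer mRNA-seq libraries, 3 biological replicates per group per the study's methods. The authors deposited FPKM per gene with gene lengths and coordinates, and the submitters' processing notes name GRCm38 and mm10. The aligner, counter and strand setting are not given in the sources used here. All values above 0 were whole reads (within 0.1 of a read), and the authors' FPKM denominators were 0.909 to 1.16 times the reads on genes, highest in the NC group, so scaling to total reads on genes was tried. No value column was left unmapped (0).

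Levels were taken as log2(FPKM + 1). Genes averaging 1 FPKM or more in these 9 livers (9699) were fitted by limma 3.58.1 (lmFit, eBayes with trend) in R 4.3.3, in fits of 2 groups, with Benjamini-Hochberg adjustment over all genes tested. The pseudocount makes fold changes of low genes smaller. The thresholds of a DEG were those of the study, an adjusted p up to 0.05 and an absolute log2 fold change from 1. Scripts were tested on simulated data. Alternatives were another pseudocount (0.1), quantile normalization, 1 fit of all libraries, a replicate block, no trend, voom on reads, other filters and each library left out. Voom on genes with at least 10 reads and scaling to total reads were added after the data were seen.

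In APAP against NC, deviations of same-numbered libraries correlated (r = 0.213, 0.160 and 0.378), and each library correlated best with its own number, which meets the bar for pairs there, although no source states a pairing. The number of NC replicate 3 comes from its description and differs from that in its title, which leaves its pair less certain. The values printed come from fits without a block, and the blocked value is given where it changes a call.

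All 10 members are named. Of each list, up to 4 DEGs per comparison with the largest fold changes are named, and for each tested member the 2 genes with the highest Pearson's r. Members and lists were chosen with earlier results of these data known.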

Additional observations from a re-analysis of the deposited data

How the results depend on the processing

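The 5 member DEGs of APAP against NC became 3 with no minimum mean (Ccl6 and S100a9, with Cxcl2 now tested, while Cxcl1, Ccl2 and S100a8 lost their calls) and 2 with a mean of at least 5 FPKM, which leaves fewer members to test. Over all genes the count of 766 became 1197 with voom, 478 with the 5 FPKM minimum and 2083 with voom on genes of at least 10 reads. In AMSC against APAP the member count of 0 became 1 in 1 fit of all libraries (Ccl2), 1 with the replicate block (Ccl2, -1.28, adjusted p = 0.0291) and 1 with voom on genes of at least 10 reads (Cxcl2), and leaving out 1 library gave 0 to 2. Over all genes the count of 190 became 335 with the block, 296 with voom, 21 with no minimum mean, 102 with the 5 FPKM minimum and 446 with voom on genes of at least 10 reads. Leaving out 1 library gave 90 to 229, with 105 without APAP replicate 3 and 101, 90 and 94 without AMSC replicates 2, 3 and 4. In AMSC against NC the 3 member DEGs became 5 with a pseudocount of 0.1, 5 with voom and 5 with voom on genes of at least 10 reads, and the 583 over all genes became 915, 968 and 1506. Without NC replicate 3 these counts were 4 and 624, and in APAP against NC 5 and 796.

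Among the members, directions turned only for differences smaller than their own SE. Cxcl13 in APAP against NC was -0.029 with quantile normalization, -0.10 scaled to total reads and -0.28 to 0.40 with 1 library left out. With 1 library left out, Cxcl13 was -0.61 to 0.0072 in AMSC against APAP (positive without APAP replicate 3) and -0.48 to 0.087 in AMSC against NC (positive without NC replicate 3). Cxcl1 in AMSC against APAP was -0.12 with the block and -0.26 to 1.08 with 1 library left out (negative without APAP replicate 1). Ccl9 in AMSC against NC was 0.058 with the block and -0.14 to 0.065 with 1 library left out (positive without NC replicate 3, AMSC replicate 3 or AMSC replicate 4). The causes were not tested.

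Same-numbered libraries did not deviate together in AMSC against APAP (r = -0.104 and -0.293) or AMSC against NC (r = -0.199 and -0.309), so numbers there are only names, and the block gave 611 DEGs in the latter. In APAP against NC the block gave 781 DEGs and changed no member call other than that of Cxcl2. Cxcl2 and Ccl7 rest on 0 to 6 reads in NC and AMSC libraries, which limits their precision.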
